A study of Mus musculus with 20 samples.

Results

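Inflammasomes are cytosolic protein assemblies that turn the detection of microbes or cell damage into proteolysis by caspases. A sensor such as NLRP3, AIM2 or the NAIP and NLRC4 pair binds its cue and recruits the adaptor ASC, encoded by *Pycard*, which gathers and activates caspase-1. Caspase-1 matures IL-1β and IL-18 and cuts gasdermin D, whose freed part forms pores in the plasma membrane, and caspase-11, encoded by *Casp4* in mouse, cuts gasdermin D when it binds cytosolic lipopolysaccharide. In macrophages the sensor and the cytokine precursors are made in a priming step at the level of transcription before any assembly occurs. The 10 genes described here, *Nlrp3*, *Nlrc4*, *Aim2*, *Nek7*, *Naip5*, *Pycard*, *Casp1*, *Casp4*, *Casp8* and *Gsdmd*, were taken by symbol from a table of gene counts with 21963 genes. All 10 were in the table, and all 10 were among the 11707 genes that passed the filter on low counts.

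The study asked how mitochondrial Ca2+ uptake bears on the inflammatory response of macrophages. RNA was sequenced in bulk from bone marrow-derived macrophages (BMDMs) in 20 libraries of 5 groups. Cells were exposed for 3 h to zymosan, a particle prepared from yeast cell wall that macrophages bind through Dectin-1 and TLR2. The chelator BAPTA-AM enters cells and binds Ca2+. The groups were WT untreated (n = 4), WT with zymosan (n = 5), WT loaded with BAPTA-AM and given zymosan (n = 4), *Mcu*-/- untreated (n = 4) and *Mcu*-/- with zymosan (n = 3). Mice of both sexes were 15 to 25 weeks old, and their marrow was differentiated for 7 d in medium conditioned by L929 cells. The study describes its *Mcu*-/- BMDMs as derived from mice with a floxed *Mcu* and a *Cx3cr1-cre*, so that *Mcu* was deleted only in cells that had expressed the Cre. The study's qPCR stimulations used 2 zymosan particles per cell and 10 µM BAPTA-AM, and doses for the sequenced libraries are not given in the sources used here. No group had BAPTA-AM without zymosan, and none combined BAPTA-AM with loss of *Mcu*. The libraries are labelled as biological replicates, and the labels do not say whether each came from its own mouse, so p-values measure the spread between these libraries. Total counts per library were 14.4 to 19.3 M in WT untreated, 20.3 to 22.4 M in WT with zymosan, 17.4 to 21.7 M with BAPTA-AM, 21.9 to 22.8 M in untreated *Mcu*-/- and 20.1 to 23.95 M in *Mcu*-/- with zymosan.

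Values below are read counts scaled to a common library size with edgeR's TMM factors, here called normalized counts, and group values are means ± SD of libraries. A gene was called higher or lower where edgeR's quasi-likelihood test, fitted to all 20 libraries at once, gave a Benjamini-Hochberg adjusted p under 0.05 over all genes tested. Normalized counts of *Mcu* ranged from 126 to 197 among 13 WT libraries and from 54.2 to 83.4 among 7 *Mcu*-/- libraries. With no overlap, the *Mcu* level of each library went with the genotype on its label. The level in *Mcu*-/- was 0.452 times that of WT without zymosan and 0.566 times with it. Reads were counted per gene, so the deleted part of *Mcu* was not examined by itself. All 8 macrophage markers examined had a median over 1 CPM, a read count scaled to library size, led by *Lyz2*. The T cell marker *Cd3e* and the mast cell marker *Cpa3* were each at 0 in 19 libraries. Other markers of these lists were not: *Cd5* was at 0 in 0 libraries and reached 1.30 CPM. *Kit* was at 0 in 2 and reached 0.452 CPM.

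The library of untreated *Mcu*-/- replicate 4 stood apart from the other libraries of its group. Its log2 CPM differed from those of replicates 1 to 3 by a root mean square of 0.996 to 1.01 over the genes tested, while the other 28 pairs of replicates differed by 0.324 to 0.434. Of the inflammasome genes, 7 lay below replicates 1 to 3 in this library, 2 above and 1 inside, beside 40.4%, 46.7% and 12.9% of all genes tested. The 3 *Mcu*-/- zymosan libraries resembled it in their macrophage markers, except for *Cd14*, which was at 198 CPM in replicate 4, 1389.7 ± 49.4 in *Mcu*-/- with zymosan and 1096 ± 18.0 in WT with zymosan. *Cd68* was at 971 CPM in replicate 4 and 1158 ± 16.4 in *Mcu*-/- with zymosan, but 255 ± 4.17 in untreated *Mcu*-/- replicates 1 to 3 and 309 ± 12.05 in WT with zymosan. *Itgam* was at 239 and 277 ± 8.24 CPM in the former pair and 761 ± 22.1 and 871 ± 19.9 in the latter. The 8 macrophage markers summed to 8557 CPM in replicate 4 and 10409, 10768 and 10728 in the *Mcu*-/- zymosan libraries, against 14418 to 14779 in replicates 1 to 3, 13358 to 13743 in WT untreated, 16082 to 16396 in WT with zymosan and 14322 to 14561 with BAPTA-AM. These sums hide opposite moves: in replicate 4, 4 of the 8 markers were above the mean of replicates 1 to 3 and 4 below it. *Lyz2*, at 2823 against 8115 ± 283 CPM, and *Adgre1*, at 2462 against 4248 ± 59.0, carried the lower sum, while *Fcgr1* was at 518 against 118 ± 0.0192 and *Csf1r* at 1269.9 against 840.0 ± 23.9.

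Markers of other cell types moved in the same 4 libraries. The 6 fibroblast markers summed to 28.3 CPM in untreated *Mcu*-/- replicate 4 and 52.3, 44.0 and 50.9 in *Mcu*-/- with zymosan. The sums were 1.10 to 2.81 in replicates 1 to 3, 2.67 to 4.11 in WT untreated, 4.71 to 6.68 in WT with zymosan and 4.00 to 4.75 with BAPTA-AM. *Col1a2* and *Col1a1* carried these sums, while *Lum* was at 0 in 14 libraries and *Dcn* at 0 in 11. The 4 B cell markers, almost all of it *Cd79b*, summed to 18.1 CPM in replicate 4 and 12.4 to 13.3 in *Mcu*-/- with zymosan, against 53.2 to 55.1 in replicates 1 to 3, 53.1 to 55.4 in WT untreated, 30.4 to 36.7 in WT with zymosan and 31.4 to 33.8 with BAPTA-AM. The 8 neutrophil markers summed to 0.159 CPM in replicate 4 and 0.497 to 0.765 in *Mcu*-/- with zymosan, against 1.92 to 2.81 in replicates 1 to 3, 2.57 to 4.01 in WT untreated, 3.40 to 5.32 in WT with zymosan and 2.41 to 3.36 with BAPTA-AM. The 4 megakaryocyte markers summed to 1.31 CPM in replicate 4 and 1.24 to 2.44 in *Mcu*-/- with zymosan, against 4.91 to 5.80 in replicates 1 to 3, 6.49 to 8.005 in WT untreated, 6.73 to 9.04 in WT with zymosan and 5.72 to 7.52 with BAPTA-AM. The 5 T cell markers, led by *Cd5*, summed to 0.555 CPM in replicate 4 and 0.696 to 1.70 in *Mcu*-/- with zymosan, against 0.0370 to 0.146 in replicates 1 to 3, 0.112 to 0.256 in WT untreated, 0.155 to 0.383 in WT with zymosan and 0.373 to 0.572 with BAPTA-AM, where 1 library was above replicate 4. Sums for dendritic, mast and erythroid cell markers did not set these 4 libraries apart from all others. The part of these differences in the results below was not tested. All 3 *Mcu*-/- zymosan libraries carry them, so in *Mcu*-/- against WT with zymosan they cannot be told apart from loss of *Mcu*. Untreated *Mcu*-/- replicates 1 to 3 share the genotype and do not carry them, while untreated replicate 4 carries them without zymosan. In zymosan against untreated within *Mcu*-/-, all zymosan libraries and 1 of the 4 untreated ones carry them. Without replicate 4 that comparison and the interaction set *Mcu*-/- libraries that carry them against *Mcu*-/- libraries that do not, and there they cannot be told apart from zymosan. In bulk RNA, fewer cells of a type and less RNA per cell also cannot be told apart. Log2 fold changes of the 10 genes that use untreated *Mcu*-/- libraries are given with and without replicate 4.

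Zymosan raised 7 of the 10 inflammasome genes in WT macrophages, beside 32.4% of all genes tested, and lowered 2, beside 36.8%. In *Mcu*-/- macrophages it raised 6, beside 34.3%, and lowered 2, beside 39.4%. The zymosan response differed between genotypes, tested as an interaction, for 6 genes: it was higher in *Mcu*-/- for 3, beside 15.2% of genes, and lower for 3, beside 20.01%. Between genotypes under zymosan, 4 genes were higher in *Mcu*-/-, beside 31.8%, and 4 were lower, beside 30.3%. BAPTA-AM loading lowered 3 genes, beside 6.33%, and raised 0, beside 6.43%. Under edgeR, 4 inflammasome genes had an unadjusted p under 0.05 in that comparison, and DESeq2 called 4 lower and 0 higher. Without zymosan, edgeR called 0 of the 10 higher in *Mcu*-/-, beside 0.128%, and 0 lower, beside 0.222%. There 1 gene had an unadjusted p under 0.05, and DESeq2 also called 0 in each direction. The comparisons of *Mcu*-/- with WT and of BAPTA-AM with none share the 5 WT zymosan libraries.

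Leaving out untreated *Mcu*-/- replicate 4 narrowed the spread that all comparisons share. Without it BAPTA-AM lowered 6 inflammasome genes, beside 16.5% of genes, zymosan in *Mcu*-/- macrophages lowered 3, beside 42.4%, and the zymosan response was lower in *Mcu*-/- for 5, beside 29.3%, and higher for 3, beside 31.0%. Zymosan raised 7 in WT, beside 37.2%, and lowered 2, beside 41.3%, and in *Mcu*-/- it raised 6, beside 39.2%. BAPTA-AM raised 0, beside 15.3%. In untreated *Mcu*-/- against WT, 1.53% of all genes were called higher and 1.83% lower. The counts for *Mcu*-/- against WT with zymosan stayed at 4 higher, beside 36.4%, and 4 lower, beside 33.7%. The log2 fold change with zymosan in *Mcu*-/- became 2.91 for *Nlrp3*, 1.62 for *Nlrc4*, 1.66 for *Aim2*, 0.40 for *Nek7*, −0.36 for *Naip5*, 0.70 for *Casp1* and 2.44 for *Casp4*. Between untreated *Mcu*-/- and WT the log2 fold changes with and without replicate 4, none called, were 0.17 and 0.015 for *Nlrc4*, −0.11 and −0.011 for *Aim2*, −0.20 and 0.070 for *Pycard*, −0.027 and 0.0030 for *Casp1*, −0.058 and −0.0029 for *Casp8*, −0.084 and 0.025 for *Gsdmd*, 0.038 and 0.035 for *Nek7* and −0.11 and −0.072 for *Naip5*. DESeq2 split its BAPTA-AM calls over all genes into 668 higher and 1000 lower, where edgeR gave 753 and 741. Without zymosan it called 57 higher and 55 lower in *Mcu*-/-, where edgeR gave 15 and 26.

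**Figure D1:**
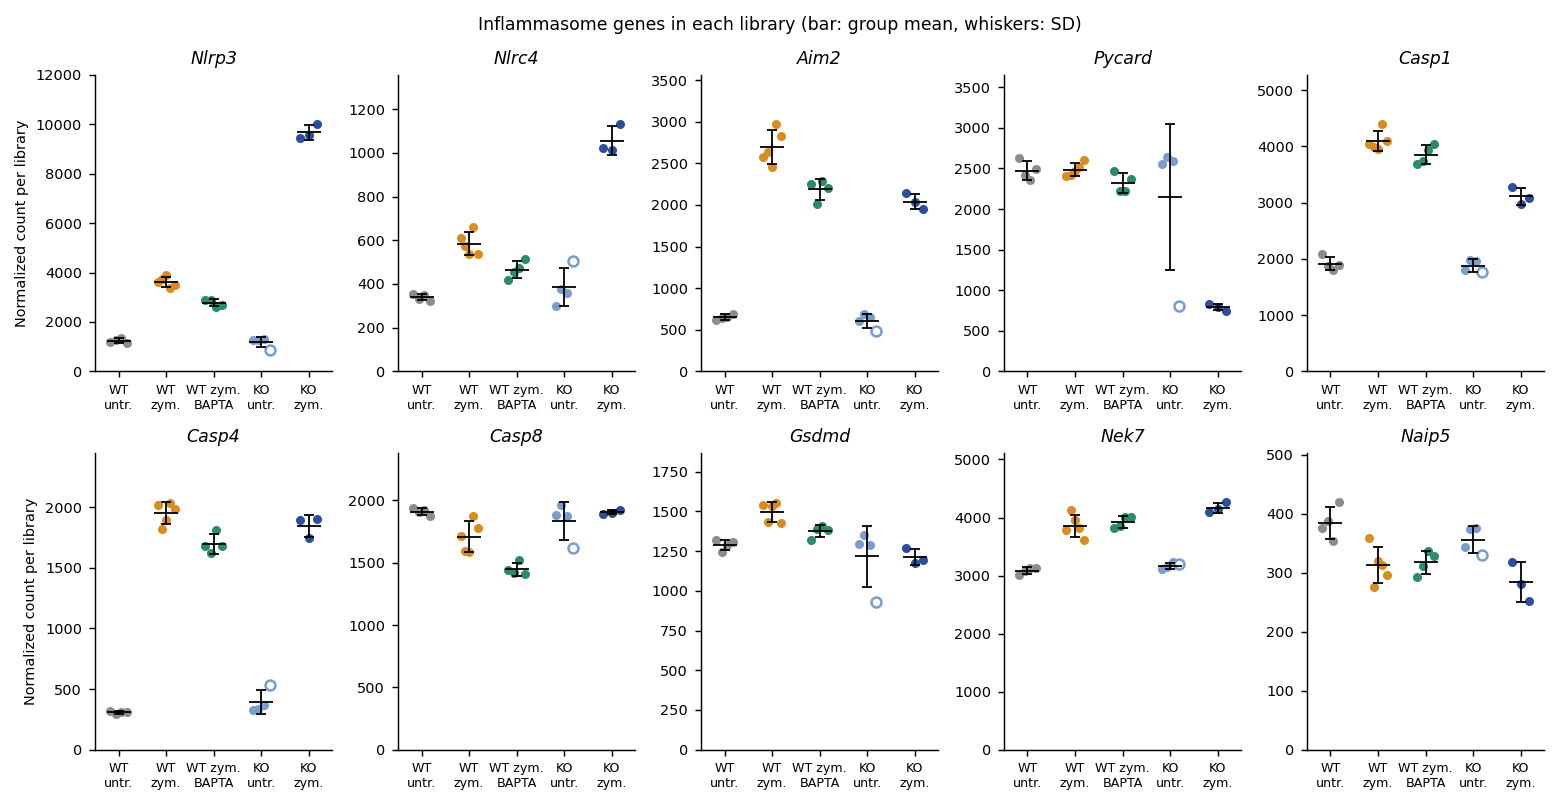
Normalized counts of the 10 inflammasome genes (linear y axis from 0) in each of the 20 libraries, grouped as WT or *Mcu*-/- (KO), untreated (untr.) or with zymosan (zym.), and with BAPTA-AM. Each point is 1 library, the bar is the group mean and the whiskers are its SD. The open point is untreated *Mcu*-/- replicate 4. *Nlrp3* is highest in the 3 *Mcu*-/- zymosan libraries (9451 to 10014), and *Pycard* is low in those 3 (749 to 832) and in the open point.

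*Nlrp3* encodes the sensor that responds to K+ efflux, organelle stress and crystals. It had 1193, 1263, 1370.3 and 1139 normalized counts in the 4 WT untreated libraries and 3627, 3722, 3895, 3376 and 3507 in the 5 WT zymosan libraries. The *Mcu*-/- zymosan libraries, numbered 3 to 5 in the count table, had 9451, 9552 and 10014. Every zymosan library lay above every untreated one, and the *Mcu*-/- zymosan libraries lay far above all others. Zymosan raised *Nlrp3* 2.92-fold in WT (log2 fold change 1.55, SE 0.094, edgeR adjusted p = 2.48e-11) and 8.18-fold in *Mcu*-/- (log2 fold change 3.03, SE 0.11, edgeR adjusted p = 6.91e-15). The difference of these responses was called by the interaction test (log2 fold change 1.49, SE 0.14, edgeR adjusted p = 3.16e-07), and without untreated *Mcu*-/- replicate 4 it was 1.37. With zymosan in both genotypes, *Nlrp3* was at 9672 ± 300.0 in *Mcu*-/- (n = 3) and 3626 ± 199 in WT (n = 5), 2.67-fold higher. No smaller p than the exact permutation p of 0.0179 is possible with 3 and 5 libraries.

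With BAPTA-AM loading, *Nlrp3* had 2908, 2901, 2609 and 2692 normalized counts. These 4 values lay between the WT untreated and the WT zymosan libraries and overlapped neither. BAPTA-AM lowered *Nlrp3* to 2778 ± 151 (n = 4), 0.766 times the level without it (log2 fold change −0.38, SE 0.090, edgeR adjusted p = 0.00776), with an exact permutation p of 0.00794, the lowest possible for groups of 4 and 5. In untreated *Mcu*-/- macrophages *Nlrp3* had 1280.3, 1279, 1297 and 869, the last value being replicate 4. Replicates 1 to 3 fell inside the WT untreated range and replicate 4 below it. The log2 fold change against WT without zymosan was −0.071 (edgeR adjusted p = 0.717) with replicate 4 and 0.047 without it (0.759).

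*Nek7* encodes a kinase that binds NLRP3 and is needed for its assembly. It was among the most counted of the 10 genes and moved little. WT libraries held 3010.3 to 3133 normalized counts untreated and 3618 to 4123 with zymosan, and *Mcu*-/- libraries 3113 to 3227 and 4094 to 4262. Zymosan libraries lay above untreated ones in both genotypes. Zymosan raised *Nek7* 1.25-fold in WT (log2 fold change 0.32, SE 0.037, edgeR adjusted p = 2.24e-07) and 1.31-fold in *Mcu*-/- (log2 fold change 0.39, SE 0.041, edgeR adjusted p = 9.27e-08), and the difference of responses was 0.071 (edgeR adjusted p = 0.332; 0.075 without replicate 4). With zymosan it was 1.08-fold higher in *Mcu*-/- (log2 fold change 0.11, SE 0.040, edgeR adjusted p = 0.0229), with overlap of the libraries and an exact permutation p of 0.0714. That call was lost without *Mcu*-/- zymosan replicate 5 (edgeR adjusted p = 0.103) or without WT zymosan replicate 5 (0.0606). It was also lost without a filter on low counts (edgeR adjusted p = 0.0745). The log2 fold change with BAPTA-AM was 0.022 (edgeR adjusted p = 0.791). An antisense gene, *Gm28501*, overlaps *Nek7* exons in GENCODE M21. The strand setting of the counting is not given in the sources used here, so reads of the 2 genes cannot be told apart.

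*Nlrc4* encodes the sensor that joins NAIP proteins when these bind flagellin or type III secretion proteins. Its normalized counts were 355, 333, 351 and 323 in WT untreated and 612, 572, 538, 663 and 536 in WT with zymosan. With zymosan, *Mcu*-/- libraries had 1021, 1012 and 1132. The 3 *Mcu*-/- zymosan libraries lay above all 17 others, as they did for *Nlrp3*. The rise with zymosan was 1.71-fold in WT (log2 fold change 0.78, SE 0.11, edgeR adjusted p = 4.75e-06) and 2.74-fold in *Mcu*-/- (log2 fold change 1.46, SE 0.12, edgeR adjusted p = 3.69e-09). The interaction was called (log2 fold change 0.68, SE 0.16, edgeR adjusted p = 0.00433), at 0.84 without untreated *Mcu*-/- replicate 4. *Nlrc4* was 1.81-fold higher in *Mcu*-/- than WT under zymosan (log2 fold change 0.85, SE 0.11, edgeR adjusted p = 7.15e-06).

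Untreated *Mcu*-/- libraries held 299, 378, 357 and 505 normalized counts of *Nlrc4*. Replicate 4 was the highest of these, and the shift of that library from the mean of replicates 1 to 3, 0.56 in log2 CPM, had the sign of the difference between *Mcu*-/- and WT with zymosan. BAPTA-AM loaded libraries held 419, 453, 474 and 513, all below the WT zymosan libraries. Their log2 fold change was −0.33 (edgeR adjusted p = 0.0575), which did not pass in the fit of all libraries and passed without untreated *Mcu*-/- replicate 4 (−0.33, adjusted p = 0.000225) and under DESeq2 (adjusted p = 0.0229).

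*Naip5* encodes a receptor of bacterial flagellin that works through NLRC4. It was the least abundant of the 10 genes per kilobase in every group but WT untreated, where *Nlrc4* was lower. WT libraries held 355 to 419.7 normalized counts untreated and 276 to 359 with zymosan, and BAPTA-AM loaded libraries 294 to 338. *Mcu*-/- libraries held 329.6 to 376 and, with zymosan, 252 to 319. Untreated libraries were higher on average in both genotypes, with overlap in WT and none in *Mcu*-/-. Zymosan lowered *Naip5* in WT (log2 fold change −0.30, SE 0.081, edgeR adjusted p = 0.00326) and in *Mcu*-/- (log2 fold change −0.33, SE 0.094, edgeR adjusted p = 0.00446). The difference of responses was −0.029 (edgeR adjusted p = 0.877; −0.070 without replicate 4), the log2 fold change of *Mcu*-/- against WT with zymosan was −0.14 (0.189) and that with BAPTA-AM 0.023 (0.917). *Naip5* resembles *Naip1*, *Naip2* and *Naip6* in sequence, so how reads were divided among them is uncertain.

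*Aim2* encodes a sensor of cytosolic double-stranded DNA. It had 621, 646, 652 and 695 normalized counts in WT untreated and 2576, 2642, 2459, 2973 and 2828 in WT with zymosan. The *Mcu*-/- zymosan libraries had 2138, 2037 and 1949 and the BAPTA-AM loaded libraries 2256, 2006, 2293 and 2201. All zymosan libraries were well above the untreated ones, and both the *Mcu*-/- and the BAPTA-AM loaded libraries lay below the 5 WT zymosan libraries. Zymosan raised *Aim2* 4.13-fold in WT (log2 fold change 2.04, SE 0.083, edgeR adjusted p = 5.67e-14) and 3.37-fold in *Mcu*-/- (log2 fold change 1.75, SE 0.090, edgeR adjusted p = 2.62e-12). It was lower in *Mcu*-/- than in WT with zymosan (log2 fold change −0.40, SE 0.086, edgeR adjusted p = 0.000579) and lower with BAPTA-AM (log2 fold change −0.30, SE 0.078, edgeR adjusted p = 0.015). The BAPTA-AM call was lost without BAPTA-AM replicate 2 (edgeR adjusted p = 0.0639). The difference of responses was −0.29 (edgeR adjusted p = 0.065) and was called without untreated *Mcu*-/- replicate 4 (−0.39, adjusted p = 6.41e-05). Untreated *Mcu*-/- libraries held 605, 684, 651 and 483, with replicate 4 the lowest.

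*Pycard* encodes ASC, the adaptor that links sensors with a pyrin domain to caspase-1. WT libraries had 2632, 2417, 2353 and 2495 normalized counts untreated, 2406, 2418, 2467, 2513 and 2603 with zymosan and 2471, 2222, 2228 and 2374 with BAPTA-AM and zymosan. The 3 WT groups overlapped. Zymosan in WT gave no call (log2 fold change 0.0041, SE 0.21, edgeR adjusted p = 0.987), with a sign that turned under other filters, and neither did BAPTA-AM (log2 fold change −0.094, SE 0.21, edgeR adjusted p = 0.855).

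The 3 *Mcu*-/- zymosan libraries had 832, 794 and 749 normalized counts of *Pycard*, and untreated *Mcu*-/- libraries had 2558, 2645, 2591 and 799.9. The 4 low libraries of the 20 were thus the 3 *Mcu*-/- zymosan libraries and untreated *Mcu*-/- replicate 4, while untreated replicates 1 to 3 were within the range of WT untreated or just above it. With zymosan, *Pycard* was at 792 ± 41.6 in *Mcu*-/- and 2481 ± 80.2 in WT, 0.319 times the WT level (log2 fold change −1.65, SE 0.25, edgeR adjusted p = 2.43e-05), with an exact permutation p of 0.0179. Zymosan lowered *Pycard* in *Mcu*-/- (log2 fold change −1.44, SE 0.25, edgeR adjusted p = 5.51e-05), but the libraries overlapped through replicate 4 and the exact permutation p was 0.0857. Without replicate 4 the log2 fold change was −1.71 (edgeR adjusted p = 1.81e-28), a fit in which all *Mcu*-/- zymosan libraries and no untreated one carry the marker differences. The difference of responses was −1.44 (edgeR adjusted p = 0.00284) with that library and −1.72 without it (2.62e-24).

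Replicate 4 lay −1.70 in log2 CPM from the mean of replicates 1 to 3 for *Pycard*, and *Mcu*-/- lay −1.65 from WT with zymosan. For *Aim2* the same differences were −0.42 and −0.40, for *Gsdmd* −0.49 and −0.30, and for *Naip5* −0.14 and −0.14. For *Nlrc4* they were 0.56 and 0.85, for *Casp1* −0.13 and −0.40 and for *Nek7* 0.014 and 0.11. *Nlrp3* went the other way, at −0.56 in replicate 4 and 1.42 with zymosan. *Casp8* also had opposite signs, at −0.24 and 0.16, as did *Casp4*, at 0.66 and −0.078. An antisense gene, *Gm45205*, overlaps *Pycard* exons in GENCODE M21, and the same limit of strand as for *Nek7* holds.

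*Casp1* encodes the protease that all these sensors activate. Its normalized counts were 2089, 1874, 1811 and 1886 in WT untreated and 4035, 3994, 3961, 4398 and 4088 in WT with zymosan. In *Mcu*-/- they were 1805, 1982, 1971 and 1758 untreated and 3274, 2978 and 3079.9 with zymosan. The zymosan libraries were above the untreated ones in both genotypes, and the *Mcu*-/- zymosan libraries were below those of WT. Zymosan raised *Casp1* 2.14-fold in WT (log2 fold change 1.10, SE 0.053, edgeR adjusted p = 6.89e-13) and 1.65-fold in *Mcu*-/- (log2 fold change 0.73, SE 0.058, edgeR adjusted p = 2.05e-09). The response was smaller in *Mcu*-/- by the interaction test (log2 fold change −0.37, SE 0.078, edgeR adjusted p = 0.00172), and −0.40 without untreated *Mcu*-/- replicate 4. *Casp1* was lower in *Mcu*-/- than in WT with zymosan (log2 fold change −0.40, SE 0.057, edgeR adjusted p = 1.34e-05). BAPTA-AM loaded libraries had 3679 to 4036 and overlapped WT with zymosan (log2 fold change −0.090, edgeR adjusted p = 0.299).

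*Casp4* lies next to *Casp1* on chromosome 9 of mm10, from 5308828 to 5336783 on the + strand, where *Casp1* ends at 5307265. It had the largest WT response to zymosan of the 10 genes, from 318, 292, 309 and 314 normalized counts untreated to 2017, 1823, 1893, 2038 and 1983 with zymosan. The groups were far apart. The rise was 6.33-fold in WT (log2 fold change 2.66, SE 0.11, edgeR adjusted p = 7.95e-14) and 4.74-fold in *Mcu*-/- (log2 fold change 2.24, SE 0.12, edgeR adjusted p = 2.95e-12). The *Mcu*-/- zymosan libraries had 1896, 1743 and 1906 and overlapped those of WT (log2 fold change −0.078, edgeR adjusted p = 0.547). Untreated *Mcu*-/- libraries had 324, 332, 369 and 537, all above WT, with replicate 4 the highest. The log2 fold change of untreated *Mcu*-/- against WT was 0.34 with replicate 4 and 0.15 without it (edgeR adjusted p = 0.212 and 0.272).

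The interaction for *Casp4* was −0.42 (edgeR adjusted p = 0.0456) with all libraries and −0.22 (0.0146) without untreated *Mcu*-/- replicate 4. Leaving out 16 of the 20 libraries, each alone, took it past the threshold (edgeR adjusted p 0.0511 to 0.105), as did a fit of the compared groups alone (adjusted p = 0.0671), so the call rests on a narrow margin. BAPTA-AM loaded libraries held 1678, 1622, 1815 and 1680.2, all below the lowest WT zymosan library. The exact permutation p was 0.0159, while edgeR gave a log2 fold change of −0.20 (adjusted p = 0.217), called only without untreated *Mcu*-/- replicate 4 (−0.20, adjusted p = 0.000164), in a fit of the 2 groups alone and in that fit with a replicate block.

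*Casp8* encodes an initiator of apoptosis that can also process IL-1β and gasdermin D. WT libraries had 1941, 1905, 1920.0 and 1874 normalized counts untreated, 1711, 1591, 1589, 1876 and 1778 with zymosan and 1441, 1421, 1519 and 1407 with BAPTA-AM and zymosan. The BAPTA-AM loaded libraries were the lowest of all groups. BAPTA-AM lowered *Casp8* (log2 fold change −0.24, SE 0.055, edgeR adjusted p = 0.00606). Zymosan lowered it in WT (log2 fold change −0.16, SE 0.054, edgeR adjusted p = 0.0127), with overlap through WT zymosan replicate 4, and DESeq2 did not call that change (adjusted p = 0.0621).

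In *Mcu*-/-, *Casp8* had 1619 to 1965 normalized counts untreated and 1891 to 1925 with zymosan (log2 fold change 0.054, edgeR adjusted p = 0.43). The value without replicate 4 was 0.000035 (adjusted p = 0.999). Under zymosan it was higher in *Mcu*-/- than in WT (log2 fold change 0.16, SE 0.059, edgeR adjusted p = 0.0263), with no overlap and an exact permutation p of 0.0536. Leaving out 5 of the 20 libraries, each alone, lost that call (edgeR adjusted p 0.0542 to 0.0766). A fit without a filter on low counts also lost it (edgeR adjusted p = 0.0611). The interaction, 0.22 (edgeR adjusted p = 0.0477), was near the threshold and was lost when 16 of the 20 libraries were left out, each alone (adjusted p 0.0503 to 0.0964), in a fit of the compared groups alone (adjusted p = 0.089) and without a filter (0.0996). Without untreated *Mcu*-/- replicate 4 it was 0.16 (0.0203).

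*Gsdmd* encodes gasdermin D, the pore-forming substrate of caspase-1 and caspase-11. WT libraries had 1317, 1245, 1288 and 1307 normalized counts untreated and 1538, 1432, 1531, 1551 and 1426 with zymosan. In *Mcu*-/- they were 1292, 1354, 1286 and 931 untreated and 1272, 1175 and 1196 with zymosan. All 5 WT zymosan libraries were above the WT untreated ones and above every *Mcu*-/- library. Zymosan raised *Gsdmd* 1.16-fold in WT (log2 fold change 0.21, SE 0.075, edgeR adjusted p = 0.0168), and *Gsdmd* was lower in *Mcu*-/- than in WT with zymosan (log2 fold change −0.30, SE 0.083, edgeR adjusted p = 0.00435). In *Mcu*-/- the log2 fold change with zymosan was −0.0023 (edgeR adjusted p = 0.983), and without replicate 4, the lowest library of all 20, it was −0.11 (0.0266). The difference of responses was −0.22 (edgeR adjusted p = 0.147) and −0.32 without that library (1.09e-05). BAPTA-AM loaded libraries had 1322, 1388, 1407 and 1383, all below WT with zymosan (log2 fold change −0.12, edgeR adjusted p = 0.35), and were called lower without replicate 4 (adjusted p = 0.0118).

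**Figure D2:**
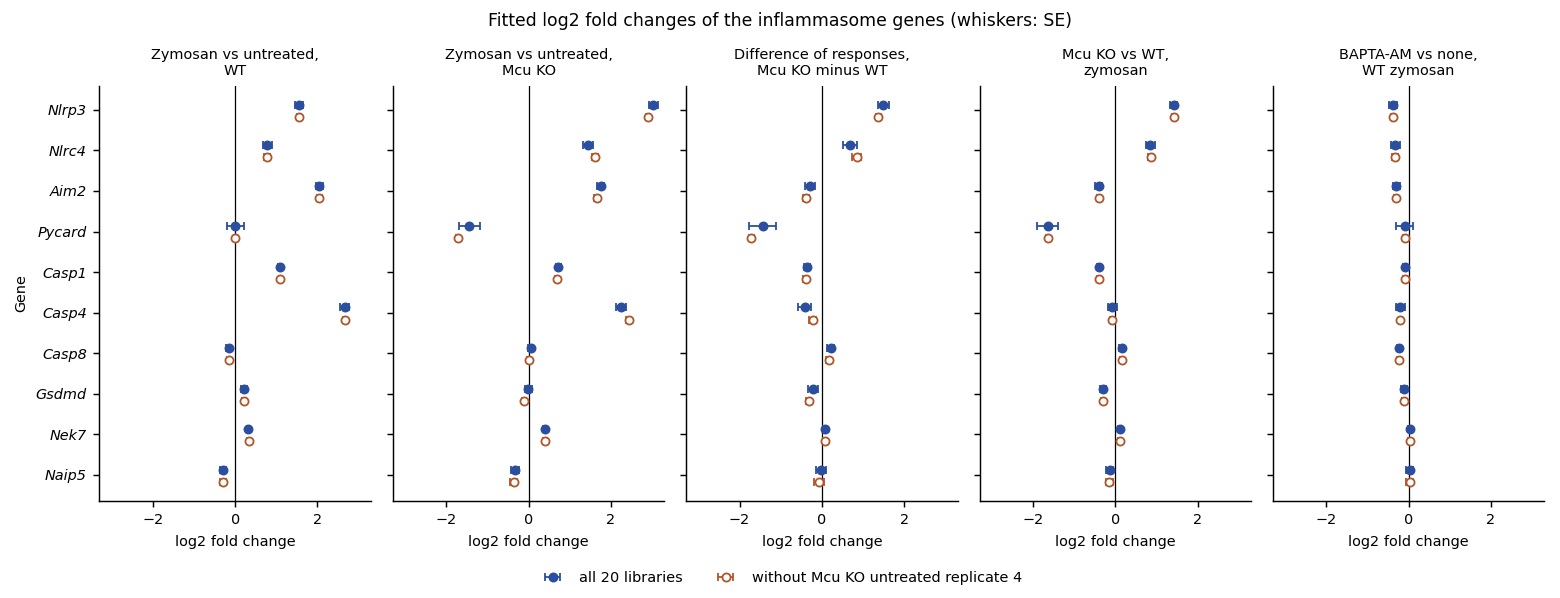
Fitted log2 fold changes (x axis) of the 10 inflammasome genes (y axis) in 5 comparisons, with whiskers of 1 SE. Filled points use all 20 libraries and open points leave out untreated *Mcu*-/- replicate 4. The *Nlrp3* and *Pycard* points lie on opposite sides of 0 in the comparison of *Mcu*-/- with WT under zymosan, at 1.42 and −1.65, and the filled *Pycard* points have the widest whiskers.

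Levels were compared between genes per kilobase of the principal GENCODE M21 transcript, in CPM per kilobase. *Casp1* was the most abundant of the 10 in every group but *Mcu*-/- with zymosan, at 62.1 ± 3.92 in WT untreated, 133 ± 5.69 in WT with zymosan, 125 ± 5.46 with BAPTA-AM and 60.9 ± 3.70 in untreated *Mcu*-/- (62.2 ± 3.21 without replicate 4). *Nlrp3* was at 14.98 ± 1.21 CPM per kilobase in WT untreated and 43.7 ± 2.40 with zymosan. In *Mcu*-/- with zymosan *Nlrp3* reached 117 ± 3.62, above *Casp1* at 101 ± 4.88. *Casp4* rose from 10.4 ± 0.390 to 66.0 ± 3.05 in WT, and *Gsdmd* was at 34.9 ± 0.862 and 40.5 ± 1.65. Reads were counted per gene, and the exons of *Casp4* together span 3.71 kb where its principal transcript is 1.44 kb, so its level on this scale is uncertain. With the bases of all exons as the length, chosen after seeing the data, *Casp4* was at 4.03 ± 0.151 and 25.5 ± 1.18 in WT, and its place among the 10 with zymosan in WT went from 2 to 7. By that length *Gsdmd* was at 26.3 ± 0.650 and 30.5 ± 1.25 in WT, and *Casp1* was again the most abundant in every group but *Mcu*-/- with zymosan, where *Nlrp3* was above it. The annotated *Pycard* transcript is 3.80 kb in GENCODE M21 and differs in RefSeq, so its level on this scale is uncertain. The ratio of *Nlrp3* to *Pycard* on this scale shares that uncertainty in its size, though a fixed length leaves its changes between groups unaffected. It also carries, in size and in changes, the limit of strand given above for *Pycard*. It was 0.476 ± 0.0580 in WT untreated, 1.38 ± 0.104 in WT with zymosan, 1.13 ± 0.0710 with BAPTA-AM, 0.608 ± 0.280 in untreated *Mcu*-/- and 11.6 ± 0.966 in *Mcu*-/- with zymosan. In untreated *Mcu*-/- it was 1.03 in replicate 4 and 0.468 ± 0.00917 in replicates 1 to 3.

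Across the 20 libraries, the log2 CPM of *Aim2* and *Casp1* had a Pearson r of 0.981, *Aim2* and *Casp4* 0.966, and *Nlrp3* and *Nlrc4* 0.911. *Pycard* and *Nlrc4* had an r of −0.745, and *Casp8* had no r above 0.286 with any other of the 10 genes, with its lowest at −0.565 with *Casp1*, −0.513 with *Casp4* and −0.464 with *Aim2*. The same 8 values without untreated *Mcu*-/- replicate 4 were, in this order, 0.980, 0.989, 0.970, −0.833, 0.289, −0.653, −0.548 and −0.563. These values describe 20 libraries that fall into 5 groups, so they are no test. Among 7648 other genes that averaged 10 CPM or more, those most like *Nlrp3* on the same measure were *Trps1* (r = 0.985), *Rffl* (r = 0.978) and *Tfec* (r = 0.977). For *Nlrc4* they were *Tmem219* (r = 0.975), *Nckap1l* (r = 0.974) and *Vcam1* (r = 0.973), and for *Aim2* *Mob3c* (r = 0.997), *Sf3b1* (r = 0.995) and *Lcp2* (r = 0.994). *Pycard* was most like *Arl6ip5* (r = 0.997), *Cep55* (r = 0.996) and *Use1* (r = 0.995), and *Casp1* most like *Gpd2* (r = 0.992), *Eif3j1* (r = 0.992) and *Eif1a* (r = 0.992). *Casp4* went with *Slfn8* (r = 0.999), *Zc3hav1* (r = 0.999) and *Parp9* (r = 0.998). The highest values for *Casp8* were *Mplkip* (r = 0.875), *Ncf1* (r = 0.869) and *Phtf1* (r = 0.864), and for *Gsdmd* *Zyx* (r = 0.945), *Hspa8* (r = 0.940) and *Hnrnpdl* (r = 0.937). Without that library these were 0.883, 0.928 and 0.862 for *Casp8* and 0.881, 0.905 and 0.866 for *Gsdmd*. For *Nek7* the genes were *Rc3h1* (r = 0.979), *Lims1* (r = 0.976) and *Tmem170b* (r = 0.975), and for *Naip5* *Smim10l1* (r = 0.882), *Zscan26* (r = 0.863) and *Trmt5* (r = 0.857).

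Further genes of the pathway were counted in lists, to be read beside the shares of all genes called in each comparison, given above with all libraries and without untreated *Mcu*-/- replicate 4. Over all genes tested the median log2 fold change was −0.044 with zymosan in WT, −0.062 with zymosan in *Mcu*-/-, 0.016 for *Mcu*-/- against WT with zymosan and 0.00049 with BAPTA-AM. Of 12 other sensors and NAIPs, 9 were tested. Zymosan raised 3 and lowered 5 in WT (median log2 fold change −0.23) and raised 4 and lowered 3 in *Mcu*-/- (−0.12, or −0.16 without untreated *Mcu*-/- replicate 4). *Nod2*, a sensor of muramyl dipeptide, rose most, from 55.1 ± 13.8 to 1398 ± 45.2 normalized counts in WT (log2 fold change 4.68, SE 0.12, edgeR adjusted p = 4.84e-17). *Nlrx1*, a mitochondrial NOD-like receptor, fell most (log2 fold change −2.06, SE 0.094, edgeR adjusted p = 2.93e-13). In *Mcu*-/- against WT with zymosan 2 were higher and 4 lower (−0.11), or 2 and 5 without untreated *Mcu*-/- replicate 4. *Mefv*, which encodes pyrin, was lower there (log2 fold change −1.10, SE 0.14, edgeR adjusted p = 3.35e-06). BAPTA-AM loading lowered it too (log2 fold change −0.82, SE 0.12, edgeR adjusted p = 0.00017), and of the list it lowered 3 of the 9 and raised 0. *Nlrp10* was lower on average with zymosan than without in both genotypes, from 28.4 ± 11.1 in *Mcu*-/- and 25.3 ± 6.74 in WT, and had the largest called excess of *Mcu*-/- over WT with zymosan, at 20.9 ± 7.04 against 9.81 ± 4.01 (log2 fold change 1.09, SE 0.40, edgeR adjusted p = 0.0242), with overlapping libraries. The interaction was called higher for *Naip2* (log2 fold change 0.73, SE 0.14, edgeR adjusted p = 0.000919; 0.91 without that library), subject to the same limit as *Naip5*, and lower for *Mefv* (−1.20; −1.16), and without that library for 2 genes higher, most for *Nlrp10* (1.14), and 3 lower.

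The PYHIN and PYD genes encode DNA-binding relatives of AIM2 and pyrin-only proteins, and 11 of 15 names were in the table and tested. Zymosan raised all 11 in WT (median 5.06) and all 11 in *Mcu*-/- (3.99, or 5.90 without untreated *Mcu*-/- replicate 4). *Ifi205* rose most, to 5201 ± 369 normalized counts in WT and 17662 ± 658 in *Mcu*-/-, from 11.8 ± 1.61 and 122 ± 196 (log2 fold change 7.20 in *Mcu*-/-, and 9.50 without replicate 4). It was higher in *Mcu*-/- than WT under zymosan (log2 fold change 1.76, SE 0.51, edgeR adjusted p = 0.006), 1 of 4 list genes called higher there, while 0 were called lower (median 1.00). Without untreated *Mcu*-/- replicate 4 these counts were 9 and 2. BAPTA-AM changed 0 with all libraries (median −0.37) and lowered 11 without replicate 4, so the count rests on that library. With all libraries the interaction was called for *Mndal* (log2 fold change −0.90, SE 0.32, edgeR adjusted p = 0.0348), at −0.43 without replicate 4. Without that library it was called for 7 genes higher, most for *Ifi208* (1.22), and 2 lower. The median interaction of the list was −0.90 with all libraries and 0.56 without replicate 4, so its sign rests on that library. There *Ifi205* had 417 normalized counts without zymosan, against 24.2 ± 0.859 in untreated *Mcu*-/- replicates 1 to 3. Members of this family resemble each other in sequence, and reads shared among them may not have been resolved.

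All 22 genes of NLRP3 licensing and activation were tested, among them ion channels, guanylate-binding proteins and kinases. Zymosan raised 11 and lowered 8 in WT (median 0.13), and raised 13 and lowered 6 in *Mcu*-/- (0.43, or 0.61 without untreated *Mcu*-/- replicate 4). *Gbp5*, which encodes a guanylate-binding protein tied to NLRP3 assembly, rose from 50.5 ± 10.8 to 35448 ± 1699 normalized counts in WT. With all libraries it was the 1 gene of these lists called in untreated *Mcu*-/- against WT, at 95.9 ± 21.1 (log2 fold change 0.94, SE 0.14, edgeR adjusted p = 0.00171; 0.81 without replicate 4). Without replicate 4, 5 list genes were called higher there and 0 lower: 3 of the PYHIN and PYD genes, 1 of this list and 1 of the brakes. *Kcnk6*, the gene of a K+ channel, fell in both genotypes (log2 fold change −2.31 in WT and −2.71 in *Mcu*-/-). With zymosan 8 were higher and 8 lower in *Mcu*-/- (median 0.067), or 10 and 9 without replicate 4. *Panx1*, a pannexin channel gene, was furthest above WT there (log2 fold change 1.16, SE 0.33, edgeR adjusted p = 0.00561). It was at 217 ± 6.60 normalized counts in *Mcu*-/- and 97.1 ± 11.3 in WT, and without zymosan at 348 in untreated *Mcu*-/- replicate 4 and 94.2 ± 6.91 in replicates 1 to 3. *Txnip*, whose product binds thioredoxin and NLRP3, was at 1311 ± 29.0 in *Mcu*-/- and 3126 ± 277 in WT (log2 fold change −1.25, SE 0.068, edgeR adjusted p = 8.93e-11). BAPTA-AM moved *Txnip* the other way, to 5134 ± 293 (log2 fold change 0.72, SE 0.058, edgeR adjusted p = 1.72e-07), among 3 list genes raised and 3 lowered, or 4 and 6 without untreated *Mcu*-/- replicate 4. *Gbp2* fell most (log2 fold change −0.38, SE 0.10, edgeR adjusted p = 0.0125). The interaction was higher for 4 and lower for 5, or 9 and 8 without that library, with *Kcnk13* at 0.68 (0.83 without it) and *Txnip* at −1.40 (−1.36). Without it *Panx1* had the largest positive interaction called in this list, at 1.08.

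Of the inflammasome brakes, 15 were tested. Zymosan raised 6 and lowered 4 in WT (median 0.33) and raised 6 and lowered 7 in *Mcu*-/- (−0.15, or −0.17 without untreated *Mcu*-/- replicate 4). The counts without untreated *Mcu*-/- replicate 4 were 9 and 4 in WT, beside 37.2% and 41.3% of all genes, and 7 and 8 in *Mcu*-/-, beside 39.2% and 42.4%. *Tnfaip3*, which encodes the ubiquitin-editing enzyme A20, rose most in WT (log2 fold change 5.94, SE 0.38, edgeR adjusted p = 4.38e-11), and *Ptpn22*, the gene of a tyrosine phosphatase, fell most (log2 fold change −0.77, SE 0.12, edgeR adjusted p = 1.2e-05). In *Mcu*-/- with zymosan 3 were higher and 6 lower than in WT (median −0.062), or 5 and 6 without that library. *Il18bp*, which encodes the decoy that binds IL-18, was at 699 ± 15.5 in *Mcu*-/- and 164 ± 20.5 in WT (log2 fold change 2.09, SE 0.40, edgeR adjusted p = 0.000214), and without zymosan at 415 in untreated *Mcu*-/- replicate 4 and 73.1 ± 6.53 in replicates 1 to 3. *Tmem176a*, which encodes a membrane protein paired with TMEM176B, was at 2822 ± 103 and 18995 ± 439 (log2 fold change −2.75, SE 0.37, edgeR adjusted p = 7.37e-06), and without zymosan at 2479.7 in untreated *Mcu*-/- replicate 4 and 14966 ± 114 in replicates 1 to 3. BAPTA-AM raised 1, *Nfe2l2* (log2 fold change 0.24, SE 0.076, edgeR adjusted p = 0.049), and lowered 0; without untreated *Mcu*-/- replicate 4 it raised 3 and lowered 6. The interaction was higher for 3 and lower for 5, or 6 and 7 without that library, where *Il18bp* had the largest positive value called, at 1.88. The interaction of *Tmem176a* was −2.43 (−2.76 without replicate 4). *Casp12* was near 0 reads without zymosan, at 5.04 ± 1.81 in WT and 1.13 ± 0.985 in *Mcu*-/-.

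Apoptotic caspases and necroptosis genes were all tested, 16 of 16. Zymosan raised 11 and lowered 3 in WT (median 0.63), and raised 11 and lowered 2 in *Mcu*-/- (0.47, or 0.52 without untreated *Mcu*-/- replicate 4). *Zbp1*, the gene of a Z-nucleic acid sensor upstream of RIPK3, rose most in WT (log2 fold change 3.45, SE 0.47, edgeR adjusted p = 2.45e-06), and *Cflar*, which encodes the caspase-8 regulator c-FLIP, rose most in *Mcu*-/- with all libraries (log2 fold change 3.48, SE 0.11, edgeR adjusted p = 2.59e-15). Without untreated *Mcu*-/- replicate 4 the largest called rise in *Mcu*-/- was that of *Zbp1*, at 4.12, with *Cflar* at 3.66. *Zbp1* was at 1853 in untreated *Mcu*-/- replicate 4 and 273 ± 16.7 in replicates 1 to 3. *Casp9* fell in WT (log2 fold change −1.29, SE 0.050, edgeR adjusted p = 2.33e-14) and in *Mcu*-/- (log2 fold change −1.65, SE 0.060, edgeR adjusted p = 1.44e-14). With zymosan 6 were higher and 5 lower in *Mcu*-/- (median −0.0048), led by *Casp2* (log2 fold change 0.98, SE 0.11, edgeR adjusted p = 1.21e-06) and by *Bid*, a substrate of caspase-8 (log2 fold change −0.79, SE 0.078, edgeR adjusted p = 1.86e-07). BAPTA-AM raised 1, *Casp2* (log2 fold change 0.39, SE 0.11, edgeR adjusted p = 0.0204), and lowered 3, and without untreated *Mcu*-/- replicate 4 raised 2 and lowered 8. The interaction was higher for 4, most for *Casp2* (1.11), and lower for 5, most for *Bid* (−0.68), or 7 and 6 without untreated *Mcu*-/- replicate 4.

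Of 17 genes of gasdermins, membrane rupture and repair, 10 were tested. *Gsdma2*, *Gsdma3*, *Gsdmc2* and *Gsdmc3* were at 0 in every library and *Gsdma*, *Gsdmc* and *Gsdmc4* did not pass the filter, which left *Gsdmd* and *Gsdme* as the gasdermin genes tested. *Gsdme* was lower in *Mcu*-/- than in WT with zymosan, at 92.5 ± 9.91 against 149 ± 14.05 normalized counts (log2 fold change −0.68, SE 0.11, edgeR adjusted p = 5.12e-05). *Ninj1*, which encodes the protein that ruptures the plasma membrane after pore formation, was at 8478 ± 189.5 and 5701 ± 227 (log2 fold change 0.57, SE 0.18, edgeR adjusted p = 0.0097), and without zymosan at 5578 in untreated *Mcu*-/- replicate 4 and 2557 ± 52.7 in replicates 1 to 3. *Irf2*, a transcription factor gene needed for *Gsdmd* expression, rose with zymosan in WT (log2 fold change 1.51, SE 0.060, edgeR adjusted p = 3.62e-14) and was lower with BAPTA-AM (log2 fold change −0.38, SE 0.058, edgeR adjusted p = 0.000206), the 1 list gene called there with all libraries. Without untreated *Mcu*-/- replicate 4, BAPTA-AM raised 1 and lowered 2 of the list. Zymosan raised 6 and lowered 0 in WT (median 0.42) and raised 6 and lowered 2 in *Mcu*-/- (0.68, or 0.79 without untreated *Mcu*-/- replicate 4). With zymosan 5 were higher and 3 lower in *Mcu*-/- (median 0.15). The interaction was higher for 1, *Rraga* (log2 fold change 0.30, SE 0.10, edgeR adjusted p = 0.0219; 0.40 without replicate 4), and lower for 2, most for *Gsdme* (−0.79), or 5 and 2 without untreated *Mcu*-/- replicate 4, where *Ninj1* had the largest positive value called, at 0.60.

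All 5 tested cytokine substrates and relatives rose with zymosan in both genotypes. *Il18* went from 105 ± 9.77 to 462 ± 40.2 normalized counts in WT and from 111 ± 28.9 to 354 ± 29.3 in *Mcu*-/-. *Il33* had 2 reads in the 4 WT untreated libraries together and 903 ± 117 normalized counts with zymosan. In *Mcu*-/- with zymosan it was at 185 ± 22.1 (log2 fold change −2.29, SE 0.16, edgeR adjusted p = 2.49e-09), while *Il1a* was higher than in WT (log2 fold change 2.13, SE 0.11, edgeR adjusted p = 4.71e-11). In all, 2 were higher and 2 lower in *Mcu*-/- (median 0.19). BAPTA-AM lowered 3 (median −0.48), with the largest fall in *Il1a* (log2 fold change −2.28, SE 0.12, edgeR adjusted p = 3.67e-09), and left *Il33* at 914 ± 68.0. The interaction was higher for *Il1b* (log2 fold change 1.08, SE 0.31, edgeR adjusted p = 0.012; 0.80 without replicate 4). For *Il33* it rests on untreated levels near 0 and was not called without replicate 4 (edgeR adjusted p = 0.144).

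Promoter windows from RefSeq, 250 bases before to 50 after a gene's start in build GRCm38.p6, matched 9 of the 10 genes in 11 windows. They were searched on both strands for the κB decamer and for GAAANNGAA, TGANTCA and TTCNNNGAA, the cores bound by IRF, AP-1 and STAT proteins. A κB match was in windows of *Casp4*, *Nlrp3* and *Naip5* and in 4.51% of 32851 promoter windows of the same length. That share counts windows, while a gene here can have more than 1. The other *Nlrp3* window, chr11:59542436-59542735, had 0 κB matches. The *Casp4* windows, which start at 5308599 and 5308610, overlap and hold the same matched letters. The other motifs, in 8.56%, 7.81% and 8.30% of all windows, were in none of the 11. 1 sequence with a match is printed for each of these genes. *Casp4* and *Nlrp3* rose with zymosan in both genotypes, and *Naip5* fell. Capitals mark the κB letters, which in *Casp4* are overlapping matches. They are a description of these windows and not sites shown to be bound. The windows are chr9:5308599-5308898 on the + strand for *Casp4*, chr11:59541319-59541618 on the + strand for *Nlrp3* and chr13:100247287-100247586 on the − strand for *Naip5*.
Casp4: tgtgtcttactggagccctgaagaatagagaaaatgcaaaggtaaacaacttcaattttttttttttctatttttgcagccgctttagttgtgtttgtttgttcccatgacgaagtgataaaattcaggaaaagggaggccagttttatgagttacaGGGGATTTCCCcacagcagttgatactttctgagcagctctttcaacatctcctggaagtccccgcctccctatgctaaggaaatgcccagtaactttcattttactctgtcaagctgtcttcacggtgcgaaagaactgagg
Nlrp3: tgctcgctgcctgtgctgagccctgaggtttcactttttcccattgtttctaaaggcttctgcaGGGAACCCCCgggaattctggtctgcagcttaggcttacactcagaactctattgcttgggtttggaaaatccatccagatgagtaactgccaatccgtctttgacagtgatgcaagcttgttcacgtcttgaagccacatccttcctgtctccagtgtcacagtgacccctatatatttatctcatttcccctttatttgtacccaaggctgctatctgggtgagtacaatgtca
Naip5: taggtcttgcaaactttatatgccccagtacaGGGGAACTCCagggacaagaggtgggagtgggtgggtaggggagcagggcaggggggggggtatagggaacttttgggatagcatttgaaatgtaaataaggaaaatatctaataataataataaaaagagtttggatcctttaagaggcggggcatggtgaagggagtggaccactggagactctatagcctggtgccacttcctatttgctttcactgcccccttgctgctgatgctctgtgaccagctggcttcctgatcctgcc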

How the data were processed

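The authors used FastQC and MultiQC for read quality, cutadapt for adaptors, STAR for alignment to mm10 and HTSeq for counts. Deposited were raw read counts for 21963 genes in 20 libraries, with no sample column left unused here (0). The strand setting and tool versions are not given in the sources used here. The count columns of *Mcu*-/- with zymosan are numbered 3 to 5 and their labels 1 to 3, so they were used as a group and named by column.

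The tests here used edgeR 4.0.16 with limma 3.58.1 under R 4.3.3: TMM factors, filterByExpr (11707 genes kept), 1 coefficient per group, no covariate, glmQLFit and glmQLFTest, with Benjamini-Hochberg adjustment over all genes tested and calls at an adjusted p under 0.05. The SE is the absolute log2 fold change divided by the square root of F. The biological coefficient of variation was 12.4%. Normalized counts refer to a library of 20.6 M counts, and log2 CPM uses a prior count of 0.5. Exact permutation tests were two-sided on log2 CPM. At the depth reached, 1 CPM corresponded to 15.7 to 28.1 counts. On simulated counts the edgeR fit recovered 198 of 200 changes of 1 in log2, with 14 false calls. The simulation used the same dispersion for all genes and no outlying library. It therefore does not show how the fit behaves with a library such as untreated *Mcu*-/- replicate 4. Alternatives were DESeq2 1.42.0 (size factors or Wald test), other filters, the compared groups alone, a replicate block, a minimum absolute log2 fold change of 1 and leaving out each library. Positions and transcript lengths came from GENCODE M21 and promoters from RefSeq.

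The 10 genes, the pathway lists and the tests were chosen with earlier results of these data known. All 10 genes are named. From each of the 7 lists, the counts in each direction are given, and genes with the largest called rise or fall in a comparison, at 1 CPM or more in the higher group, are named, except for a result that is not reported here. The untested list genes and those at 0 in every library, the values of *Il18* and the *Il33* level with BAPTA-AM were added after they were seen, as were genes with the largest called change in fits without untreated *Mcu*-/- replicate 4. For each inflammasome gene, the 3 genes with the highest r are named.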

Additional observations from a re-analysis of the deposited data

Results flagged for a closer look

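In the groups of 4 or 5 libraries, 4 of 40 sets of values held a library far from the others by Dixon's test, where chance gives about 1 in 20. Of these, 3 were untreated *Mcu*-/- replicate 4: *Nlrp3* at 869 normalized counts, *Pycard* at 799.9 and *Gsdmd* at 931, each below replicates 1 to 3. The other was *Casp1* in WT zymosan replicate 4, at 4398, above the other libraries of its group.

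The zymosan response differed between *Mcu*-/- and WT, by edgeR's interaction test, for *Nlrp3* (1.49 on the log2 scale), *Nlrc4* (0.68), *Pycard* (−1.44), *Casp1* (−0.37), *Casp4* (−0.42) and *Casp8* (0.22). Without untreated *Mcu*-/- replicate 4 these were 1.37, 0.84, −1.72, −0.40, −0.22 and 0.16. The calls of *Casp4* and *Casp8* were near the threshold: each was lost when 16 of the 20 libraries were left out, each alone (edgeR adjusted p 0.0511 to 0.105 and 0.0503 to 0.0964), and in a fit of the compared groups alone (adjusted p = 0.0671 and 0.089). All use the 3 *Mcu*-/- zymosan libraries, whose macrophage and fibroblast markers differed from the other groups as that library's did, and the part of that difference was not tested.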

How the results depend on the processing

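With a minimum absolute log2 fold change of 1, *Mcu*-/- against WT with zymosan had 1 inflammasome gene higher, beside 7.10% of all genes tested, and 1 lower, beside 8.40%. BAPTA-AM had 0 lower, beside 0.470%. Zymosan in WT had 4 higher, beside 12.1%, and 0 lower, beside 13.6%, and zymosan in *Mcu*-/- had 4 higher, beside 13.5%, and 1 lower, beside 17.3%. The interaction had 1 higher, beside 3.19%, and 1 lower, beside 6.28%. Without a filter on low counts, 2 genes were higher in *Mcu*-/- than WT under zymosan, beside 21.7%. DESeq2's size factors and its Wald test each gave 1 gene lowered by zymosan in WT, beside 34.8% and 34.7%. BAPTA-AM lowered 6 genes in a fit of its groups alone, beside 16.3%. Deviations of same-numbered libraries from their group means had correlations from −0.0600 to 0.0556 over all genes tested, 0 of 12 over 0.1. Of the 12, 4 were highest with their own number. These were numbers 2, 3 and 4 of WT zymosan against WT untreated and number 2 of BAPTA-AM against WT zymosan. Deviations over all genes can be mostly noise, so these values do not settle whether the numbers pair libraries. With a replicate block, fitted to the compared groups, BAPTA-AM also lowered 6 genes, beside 14.5%, zymosan in WT still raised 7, beside 38.4%, and lowered 2, beside 40.5%, and 0 genes were called in untreated *Mcu*-/- against WT. No block was fitted with the *Mcu*-/- zymosan columns, whose numbers differ from their labels. Leaving out each library in turn gave 2 to 4 genes higher in *Mcu*-/- than WT under zymosan (2 without *Mcu*-/- zymosan replicate 5), beside 28.0% to 36.4% of all genes, 2 to 6 lowered by BAPTA-AM (6 without untreated *Mcu*-/- replicate 4), beside 4.49% to 16.5%, and 2 to 5 lower in the interaction (5 without that library), beside 16.7% to 29.3%. Signs turned for the changes that follow, none of them called with all libraries. *Pycard* with zymosan in WT was −0.0054 without a filter, −0.013 with at least 10 counts in every library and −0.020 to 0.035 over left-out libraries. *Gsdmd* with zymosan in *Mcu*-/- was 0.042 with DESeq2's size factors, 0.042 with its Wald test, 0.012 in its groups alone and −0.11 to 0.053 over left-out libraries. Over left-out libraries with BAPTA-AM, *Nek7* was −0.00036 to 0.047 and *Naip5* −0.020 to 0.076. In untreated *Mcu*-/- against WT, *Nlrp3* was −0.12 to 0.047, *Pycard* −0.32 to 0.070 (−0.20 with all libraries), *Casp1* −0.054 to 0.017 and *Gsdmd* −0.14 to 0.025. The *Naip5* interaction was −0.12 to 0.051. The cause of these changes was not tested. Over all genes, BAPTA-AM called 753 higher and 741 lower with all libraries, 1741 and 1788 in its groups alone, 1415 and 1583 with the replicate block and 1783 and 1929 without untreated *Mcu*-/- replicate 4. Untreated *Mcu*-/- against WT had 15 and 26, but 57 and 55 with DESeq2, 2 and 3 in its groups alone, 12 and 13 with at least 10 counts in every library, 0 and 0 with the replicate block and 178 and 213 without untreated *Mcu*-/- replicate 4. The interaction had 1779 and 2343, or 3622 and 3417 without that library. Poisson counting error came to a coefficient of variation of 1.08% to 6.32% for the 10 genes in the 5 groups. In 6 of these 50 sets it was at least the spread seen between libraries: 2 of *Casp8*, 2 of *Gsdmd*, 1 of *Nlrc4* and 1 of *Casp4*, the last at 5.54% against 3.74% in WT untreated. *Naip5* with BAPTA-AM came close, at 6.00% against 6.19%. So did *Nek7*, at 1.55% against 1.58% in untreated *Mcu*-/- and 1.75% against 1.82% in WT untreated. Depth limits the precision of the values in these sets.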
